A study of Drosophila melanogaster with 18 samples.

Results

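The comparison set strains lacking a U1 gene of the 95C cluster against strains lacking a U1 gene that lies on its own. It used 15 of the 18 RNA-seq libraries of the series. The cluster side held 9 libraries, 3 each from the 95Ca, 95Cb and 95Cc deletion strains (labelled 95Ca.del, 95Cb.del and 95Cc.del). The dispersed side held 6 libraries, 3 each from the 21D and 82Eb deletion strains (21D.del and 82Eb.del). The other 3 libraries came from the WT and served as a reference only. All libraries were made from RNA of third-instar larvae of Drosophila melanogaster. Every deletion strain was homozygous for the loss of a single U1 gene, made with CRISPR/Cas9 in embryos with Cas9 under the germline promoter nanos, and was crossed to the WT stock w1118 for at least 5 generations. The sources used here do not state whether a strain goes back to 1 founder, or whether larvae were pooled or sexed. The comparison asks which genes separated the cluster strains from the dispersed strains, and whether the 3 cluster strains were alike in them.

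U1 snRNA is the RNA core of the U1 snRNP, which pairs with the 5′ splice site of pre-mRNA at the start of splicing. The U1 snRNP is also known to protect nascent transcripts from premature cleavage and polyadenylation, and to stimulate transcription from nearby promoters. Flies carry several U1 genes that encode identical or nearly identical RNAs. In the dm6 build, the 95Ca (3R:23859467-23859630, minus strand), 95Cb (3R:23827870-23828033, plus strand) and 95Cc (3R:23826334-23826497, plus strand) genes lie within 33297 bp of each other. Only 1.37 kb separate 95Cb from 95Cc, and 31.4 kb separate 95Ca from 95Cb. The 82Eb gene is on the same arm (3R:4947933-4948096, minus strand) and the 21D gene on another (2L:901491-901654, minus strand). Each of the 5 genes is annotated as a single 164 bp snRNA.

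The strains differ by which of these genes was removed, and that is set by the guide RNAs. The 20-base guide spacers in the study's oligonucleotide table, 1 pair for each gene, are shown 5′ to 3′ without the cloning overhang. Capitals mark the 12 bases at the 3′ end, the end next to the PAM. The table labels both 82Eb guides as upstream.
21D upstream: ctttcctcAGCTCAGGGAAT
21D downstream: aaggaaggAACGTTCCTCAT
82Eb, labelled upstream: agggcgcaACTAGAACTAGT
82Eb, also labelled upstream: ctgttttaATCAGGCGTTTA
95Ca upstream: ttacctccTATCGACTCAGC
95Ca downstream: gcaaaatgTTATGAACAACG
95Cb upstream: agtgcaatGTAGGCACTGCT
95Cb downstream: cgaggtagTCTCGCTAGCTT
95Cc upstream: tctaggatATCGGTCATGAC
95Cc downstream: gcgcaagcTAGCTCTGTTAG

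The targeted genes could be checked only weakly, since the 5 U1 genes had between 0 and 24 counts in a library and none passed the filter on low counts. Each deleted gene had 0 counts in all 3 libraries of its own strain in 21D, 82Eb, 95Cb and 95Cc. The 95Ca gene had 0 counts in 95Ca replicates 1 and 3, but 5 counts in the library labelled 95Ca replicate 2. That library also held the highest count of the 95Cc gene, 24, and the highest sum of the other spliceosomal snRNA genes, 106 CPM (counts per 1e+06 sequenced reads, after scaling) against 3.79 to 38.1 CPM in the other 17 libraries. In the WT, the 95Ca gene had 1, 0 and 3 counts, so a 0 here carries little weight, as a count of 0 allows up to 3. Reads of U1 copies with the same sequence cannot be told apart. Results are given below with and without the library labelled 95Ca replicate 2 where its removal mattered.

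Total counts of the 15 deletion libraries lay between 12518047 and 20998617. On the first principal component of log2 CPM over 18 libraries, replicate 2 of 21D (73.49), 82Eb (45.04) and the WT (46.21) and replicate 1 of 95Ca (29.1), 95Cb (29.27) and 95Cc (10.16) lay on the positive side, and all others on the negative side. The summed level of 31 digestive serine protease genes was 286 CPM in 21D replicate 2 and 864 CPM in 95Ca replicate 1, against 1000 to 12900 CPM in the other deletion libraries. Fat body genes were high throughout (73000 to 137000 CPM summed over the larval serum and fat body list), and no member of the hemocyte, neuron, imaginal disc, Malpighian tubule or testis marker lists was at 0 in every library. In whole larvae, fewer cells of a type and less RNA per cell cannot be told apart.

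Between the 9 cluster and the 6 dispersed libraries, 114 genes differed by more than 2-fold at an adjusted p below 0.05, 66 higher and 48 lower in the cluster strains. These differentially expressed genes (DEGs) were 0.879% of the 12963 genes tested (0.509% higher, 0.37% lower). The median log2 fold change over all genes was -0.01. The tests are edgeR's quasi-likelihood tests with Benjamini-Hochberg adjustment, in which the mean of the 3 cluster strains was compared with the mean of both dispersed strains. Their error is the spread between libraries of 1 strain, so that they speak of these 5 strains and not of U1 loci at large. When the strains themselves were taken as the replicates, 3 against 2, edgeR called 0 genes, with 196 genes at an unadjusted p below 0.05, 53 of them among the 114. An exact permutation of 3 against 2 strains has only 10 regroupings, and with its smaller tail doubled it cannot give a p below 0.2.

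Within each arm, more genes differed between strains than differed between the arms. In the same fit, 263 genes (2.03%) differed between 82Eb and 21D, 66 higher and 197 lower in 82Eb. Among the 3 cluster strains, 1409 genes (10.9%) differed, and 66 of the 114 DEGs were among these. With 95Cc left out, 78 genes differed between 95Ca and 95Cb, while 589 differed between 95Ca and 95Cc when 95Cb was left out. Between 95Cb and 95Cc, with 95Ca left out, 1681 differed. The count of 1409 was lower without 95Cc replicate 1 (858) or 95Cc replicate 3 (924), and higher (2191) without the 5 deletion libraries on the positive side of the first component. The count between 82Eb and 21D was 163 without 82Eb replicate 1 and 172 without 82Eb replicate 3. Samples with the same replicate number deviated together within the dispersed arm and, less evenly, within the cluster arm. With a replicate block of its own in each arm, an alternative chosen after seeing the data, 395 genes differed between 82Eb and 21D, 2122 among the cluster strains, and 184 between the arms (129 higher, 55 lower), the last including 112 of the 114 DEGs.

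**Figure D1:**
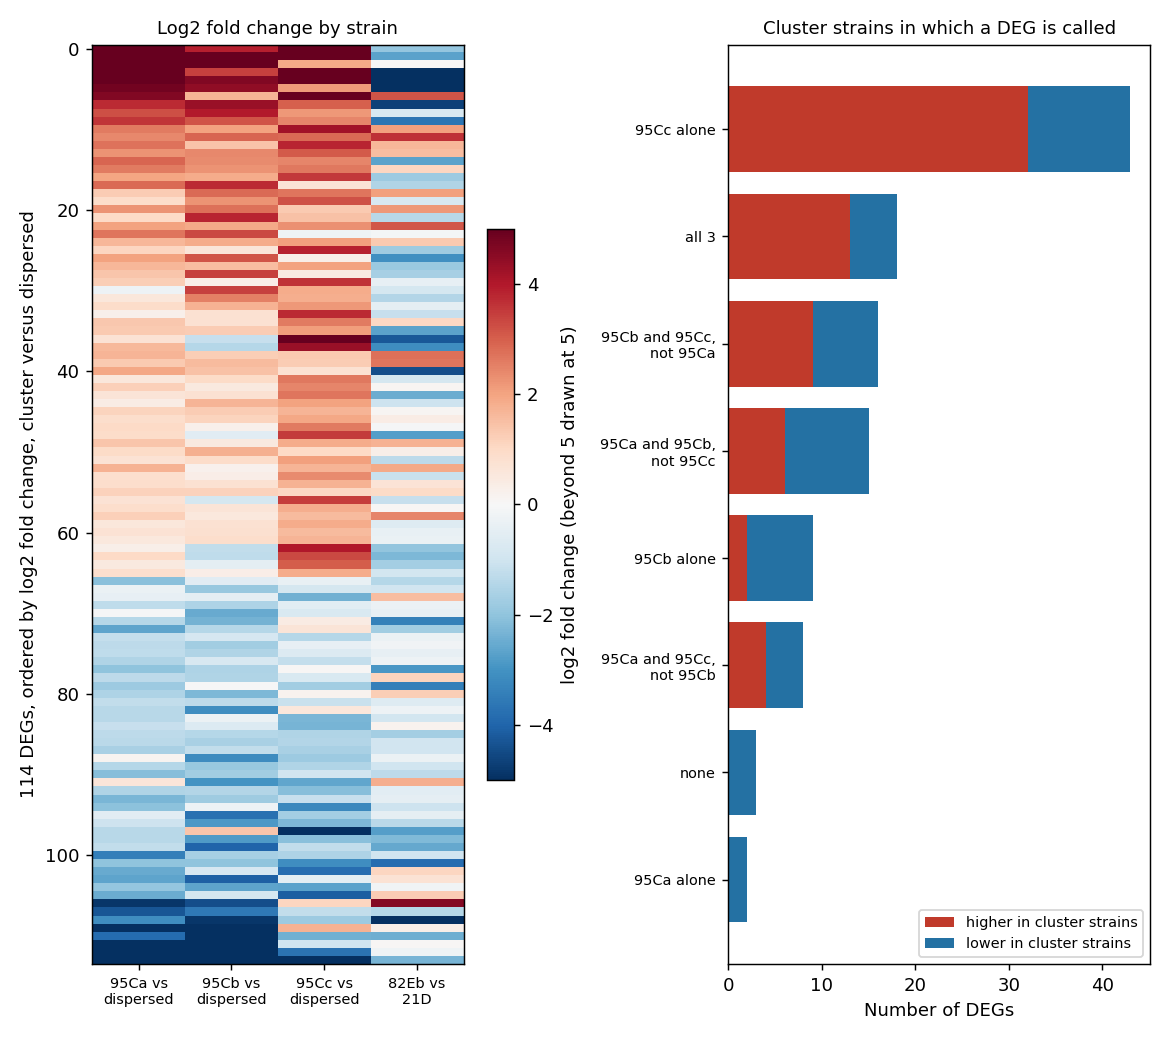
The left panel shows the log2 fold change of each of the 114 DEGs (1 row per gene, ordered by the cluster versus dispersed value) in each cluster strain against the mean of the dispersed strains, with 82Eb against 21D in the fourth column. The bars on the right count the DEGs by the cluster strains that called them in the same direction as between the arms. They are led by 43 called in 95Cc alone, followed by 18 called in all 3.

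The 3 cluster strains agreed on few genes. Each was also compared on its own with the mean of the dispersed strains, 3 comparisons that share the 6 dispersed libraries. They gave 71 DEGs in 95Ca (0.548% of the genes tested), 193 in 95Cb (1.49%) and 859 in 95Cc (6.63%). Of the 114 genes, 18 passed with 1 sign in each of the 3 strains (0.139%), 13 higher and 5 lower. The 13 were sordd2, lncRNA:CR43263, CG32198, Acsx1L, CG3397, CG7542, Cyp6a18, lncRNA:CR45386, CG15534, Ttc26, Cyp4p2, Cyp12d1-p and phr, and the 5 were PGRP-SC1b, scaRNA:MeU1:95C-A24, EMC2A, niki and CG9259. Only calls in the direction of the difference between the arms were counted. A further 39 were called in 2 strains, 54 in 1 strain and 3 in none. Of the 54, 43 were called in 95Cc alone, 9 in 95Cb alone and 2 in 95Ca alone. The 18 became 11 without 95Cc replicate 2, and 13 without the library labelled 95Ca replicate 2, where the lower genes went from 5 to 1, as they also did without 95Ca replicate 1 or replicate 3. Of the 18, 4 also differed among the cluster strains in size.

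Agreement of the cluster strains did not always mean that both dispersed strains lay on the other side. Every cluster strain was set against every dispersed strain, and a call in at least 1 cluster strain counted. By that rule, 9 of the 18 genes were called against both 21D and 82Eb, 5 against 21D alone and 4 against 82Eb alone. Among the 9, Acsx1L and CG7542 were called against 21D in 1 cluster strain only, and Cyp12d1-p against 82Eb in 1 only. Acsx1L was lower than 21D in 95Cb (log2 fold change -2.17, adjusted p = 0.00421). Over these 6 pairs, 4 genes were called in all of them, namely Cyp6a18, CG15534, lncRNA:CR43263 and PGRP-SC1b. All 114 DEGs were also refitted with each strain left out. There, 19 DEGs remained without any of the 5 strains, 6 of them among the 18. Only 74 remained without 21D and 64 without 82Eb. The total rose to 223 without 21D (165 higher, 58 lower) and to 177 without 82Eb (47 higher, 130 lower), so that the direction of the majority depended on which dispersed strain was used.

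The CPM of all 9 cluster libraries lay above or below those of all 6 dispersed libraries for 31 genes (0.239%), of which 14 were higher (0.108%) and 17 lower (0.131%). DEGs made up 23 of them, 12 higher and 11 lower, and 10 of these were among the 18. The CPM printed here are scaled over all 18 libraries, and on that scale 2 of the 23 just overlapped, CG7201 (1.83 to 3.1 CPM against 3.07 to 7.09 CPM) and niki (1.89 to 3.69 CPM against 3.56 to 13.8 CPM). Most of these 23 are described below, together with many other DEGs whose libraries overlap between the arms.

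**Figure D2:**
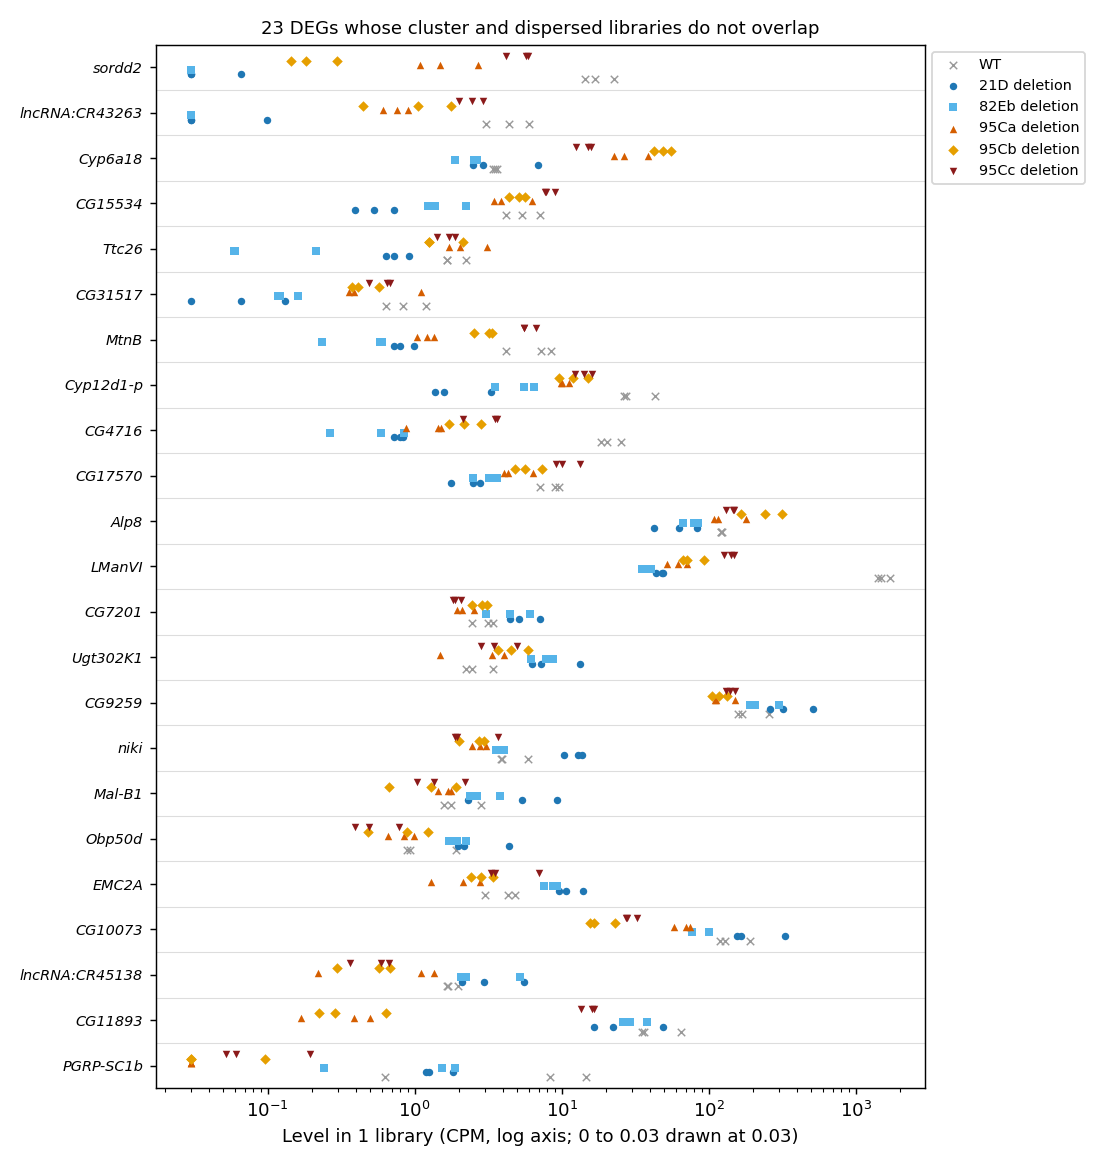
Each point is the level of a gene in 1 library in CPM on a log axis, for the 23 DEGs whose 9 cluster libraries do not overlap the 6 dispersed libraries (CG7201 and niki just do on the scale plotted), with the 3 WT libraries as crosses. For Cyp6a18 the cluster libraries reach from 12.6 to 55.8 CPM and the dispersed libraries from 1.89 to 6.95 CPM, while sordd2 is near 0 in both dispersed strains.

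Cytochrome P450 monooxygenases, which oxidise endogenous lipids and foreign compounds, included 4 DEGs among 77 genes tested (5.19%, against 0.879% of all genes). All 4 were higher in the cluster strains, and 3 of these were called in all cluster strains. The median log2 fold change of the list was 0.04. Cyp6a18 (3R:27478675-27482904) stood at 38.7, 22.6 and 26.6 CPM in 95Ca, 55.8, 49 and 42.4 CPM in 95Cb, and 15.8, 12.6 and 15 CPM in 95Cc. Its levels were 2.9, 6.95 and 2.5 CPM in 21D, 2.55, 2.65 and 1.89 CPM in 82Eb, and 3.41, 3.65 and 3.5 CPM in the WT. The dispersed strains were thus at the WT level and the cluster strains above it, with no overlap. The log2 fold change was 3.11 ± 0.26 (SE; adjusted p = 7.28e-05), and the cluster strains differed among themselves, 95Cb being highest and 95Cc lowest (adjusted p = 0.0103). Cyp6a18 lies 3.62 Mb from the 95C genes.

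Cyp12d1-p showed another arrangement. Its CPM was 9.54 to 16.1 in the cluster libraries (median 12), 1.38 to 6.51 in the dispersed libraries (median 3.42) and 26.4 to 43.3 in the WT. All deletion strains were below the WT, and the dispersed strains more so, with a log2 fold change of 1.86 ± 0.23 between the arms (adjusted p = 0.00068). Its near-identical neighbour Cyp12d1-d can share its reads, so the value may hold both genes. Cyp4p2 was called in all 3 cluster strains as well (2.07 ± 0.21, adjusted p = 0.000233), yet 82Eb overlapped the cluster strains. It had 2.41, 4.9 and 3.23 CPM in 21D but 26.9, 41 and 22.6 CPM in 82Eb, beside 33 to 58.8 CPM in the cluster libraries, and without 21D the log2 fold change was 0.52 (adjusted p = 0.321). Cyp6a2, the other DEG of the list, was called in 95Cc alone.

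CG15534, which the sources used here do not annotate further, was called in each of the 6 pairs of a cluster and a dispersed strain. It had 3.45, 6.27 and 3.89 CPM in 95Ca, 5.14, 4.41 and 5.65 CPM in 95Cb, and 7.85, 7.75 and 9.05 CPM in 95Cc. In 21D it had 0.393, 0.729 and 0.527 CPM, in 82Eb 1.38, 2.23 and 1.24 CPM, and in the WT 4.19, 7.1 and 5.4 CPM. Here the cluster strains were near the WT (log2 fold change against the WT 0.05, adjusted p = 0.95) and the dispersed strains below it (-2.56, adjusted p = 5.4e-06). Between the arms the log2 fold change was 2.58 ± 0.22 (adjusted p = 7.28e-05).

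Other genes were nearly silent in both dispersed strains. The X-linked gene sordd2 had 359 counts over the 9 cluster libraries and 1 count over the 6 dispersed libraries, a ratio of 232 per count sequenced (95% exact interval 41.3 to 9180, counting error only). It stood at 1.08, 1.48 and 2.7 CPM in 95Ca, 0.182, 0.144 and 0.298 CPM in 95Cb, 4.16, 5.73 and 5.93 CPM in 95Cc, and 14.5, 22.7 and 16.8 CPM in the WT. All 5 strains were therefore below the WT, 95Cb nearly as far as the dispersed strains, and the cluster strains differed among themselves (adjusted p = 0.000326). The long non-coding RNA lncRNA:CR43263 had 231 counts against 2, a ratio of 74.5 (20.4 to 619). Its levels were 0.446 to 2.93 CPM in the cluster libraries, at most 0.0983 CPM in the dispersed libraries and 3.07 to 5.97 CPM in the WT, and no difference among the cluster strains was called (adjusted p = 0.0864).

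Among the other non-overlapping genes that were higher in the cluster strains, Ttc26, an intraflagellar transport protein, had 1.25 to 3.1 CPM against 0.059 to 0.922 CPM (2.57 ± 0.29, adjusted p = 0.000432). It was called against 82Eb and not against 21D. MtnB, a metallothionein that binds copper and other heavy metals, had 1.04 to 6.71 CPM against 0.236 to 0.983 CPM (2.11 ± 0.2, adjusted p = 0.000158). MtnB was lowest of the cluster strains in 95Ca (1.21, 1.04 and 1.35 CPM) and highest in 95Cc (5.51, 6.71 and 5.53 CPM), the level of the WT (4.2 to 8.43 CPM). CG31517 (2.48 ± 0.44), CG4716 (1.61 ± 0.26) and CG17570 (1.31 ± 0.18) had the same order of arms, at low levels.

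The alkaline phosphatase genes Alp7, Alp2 and Alp8 lie side by side on 2R and were all higher in the cluster strains, although the group was noticed after its values were seen. Alp8 had 108 to 315 CPM in the cluster libraries, 42.8 to 85.2 CPM in the dispersed libraries and 121 to 124 CPM in the WT (1.24 ± 0.18, adjusted p = 0.00275). Alp7 overlapped, with 45.9, 23.8 and 67.2 CPM in 21D but 182, 132 and 186 CPM in 82Eb. The same holds for Alp2, at most 0.246 CPM in 21D and 0.904 to 0.958 CPM in 82Eb, so that of the 3 only Alp8 stood apart from both. Taken strain by strain, Alp8 was called in 95Cb alone.

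The LMan genes, a tandem array of lysosomal alpha-mannosidases on 2L, were also picked after their values were seen. LManIII, LManIV, LManV and LManVI were all higher in the mean of the cluster strains, by 1.03 ± 0.18, 1.36 ± 0.21, 1.07 ± 0.17 and 1.03 ± 0.11 on the log2 scale. Taken strain by strain, LManIII, LManV and LManVI were called in 95Cc alone and LManIV in 95Cb and 95Cc. LManIII, LManIV and LManV overlapped between the arms. LManIV had 0.676 to 0.852 CPM in 95Ca and 0.59 to 0.994 CPM in 21D. LManVI had 62.1, 70.8 and 51.9 CPM in 95Ca, 93.7, 66.9 and 71.6 CPM in 95Cb, 149, 128 and 141 CPM in 95Cc, 48.5, 43.7 and 48.8 CPM in 21D, and 37.4, 40.6 and 35 CPM in 82Eb. The libraries did not overlap, but the step was small beside the distance to the WT, from which the cluster strains differed by -4.15 and the dispersed strains by -5.2 on the log2 scale. LManVI missed the 2-fold threshold without the libraries on the positive side of the first component (0.98), without 95Cc (0.71), without 82Eb (0.87), without 95Cb replicate 1 (0.98) and without the library labelled 95Ca replicate 2 (1).

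In the other direction, peptidoglycan recognition proteins, secreted or membrane proteins that bind or cleave bacterial cell wall, gave 3 DEGs of 13 tested, all lower in the cluster strains (23.1%, against 0.37% of all genes lower). The list's median log2 fold change was -0.17. PGRP-SC1b, an amidase of the gut, had 7 counts over the 9 cluster libraries and 139 over the 6 dispersed libraries, a ratio of 30.8 (95% exact interval 14.5 to 78). Its levels were at most 0.195 CPM in the cluster libraries, 1.82, 1.26 and 1.19 CPM in 21D, 1.54, 0.241 and 1.89 CPM in 82Eb, and 14.6, 0.633 and 8.39 CPM in the WT. The groups did not overlap, and the lowest dispersed library was 82Eb replicate 2 (log2 fold change -5.4 ± 0.64, adjusted p = 0.00124). PGRP-SC1a, its near-identical neighbour on 2R, was at 0 in the replicate 2 libraries of 21D, 82Eb and the WT. It had 8.6 and 29.6 CPM in the other 21D libraries and 3.83 and 3.66 CPM in those of 82Eb, against at most 0.0959 CPM in the cluster libraries. Reads of this pair may be shared between them. PGRP-SC1a lost its call in DESeq2 (adjusted p = 0.0559), with a replicate block within each arm (adjusted p = 1) and on leaving out any of 13 single libraries, all but 21D replicate 2 and 82Eb replicate 2. PGRP-SB1 was lower in 95Cc alone (0.936, 0.976 and 0.781 CPM, against 2.06 to 9.42 CPM in the dispersed libraries).

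The gut lysozyme LysB was lower in the cluster strains as well, 40 counts against 399, but it overlapped and was called in none of the strains on its own. It was the 1 DEG of 4 lysozyme genes tested (25%, against 0.879% of all genes), and the list's median log2 fold change was 0.26. The summed list had a median of 122 CPM in the cluster libraries and 74.7 CPM in the dispersed libraries. LysB ranged from 0.464 to 15.2 CPM within 21D. Its near-identical neighbours in the Lys cluster may share its reads. The summed digestive proteases of 21D moved over the same libraries, with 5390, 286 and 12900 CPM in replicates 1, 2 and 3 where LysB had 4.77, 0.464 and 15.2 CPM. In the cluster libraries the proteases summed to 864 to 8910 CPM, and LysB was at most 1.17 CPM. The part of gut content in these immune gene differences was not tested.

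Stress and antimicrobial genes among the DEGs overlapped between the arms, and most of them were called in 95Cb, in 95Cc or in both. TotA, a secreted protein of the humoral stress response, had 304, 229 and 304 CPM in 95Ca, 34.9, 24.6 and 33 CPM in 95Cb and 131, 126 and 132 CPM in 95Cc. It had 326, 733 and 362 CPM in 21D and 287, 398 and 362 CPM in 82Eb, so that 95Ca overlapped the dispersed strains (-2 ± 0.19, adjusted p = 0.000122). Of 16 antimicrobial peptide genes tested, 2 were higher (12.5%, against 0.509% of all genes higher), and the list's median log2 fold change was 0.12. AttD was higher mainly in 95Cb (2.41, 4.17 and 4.61 CPM, at most 1.12 CPM elsewhere). Def was higher in 95Cc (1.14, 1.77 and 1.37 CPM, at most 0.605 CPM elsewhere among the deletion strains). Of 23 heat shock genes tested, 2 were higher (8.7%, against 0.509% of all genes higher), and the list's median log2 fold change was 0.21. The 2 genes, Hsp70Ab and Hsp70Bb, were higher in 95Cb and 95Cc but not in 95Ca. They belong to a family of near-identical copies whose reads may be shared. The non-coding lncRNA:alphagamma-element:CR32865, part of the repeats at an Hsp70 locus, was also called in these strains and highest in 95Cb (3.51, 1.97 and 1.41 CPM, at most 0.651 CPM elsewhere). Tep4, a thioester-containing immune protein picked after its values were seen, was at 442 to 508 CPM in 21D and 131 to 166 CPM in 95Cb, and at 37.4 to 50.8 CPM in 82Eb, 95Ca and 95Cc. The log2 fold change was -1.19 ± 0.1, with 82Eb level with 95Ca and 95Cc.

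Among the other genes lower in the cluster strains without overlap, EMC2A, a subunit of the endoplasmic reticulum membrane protein complex, was called in 5 of the 6 strain pairs. It had 1.3 to 7.02 CPM in the cluster libraries, 7.54 to 14 CPM in the dispersed libraries and 2.99 to 4.85 CPM in the WT. The dispersed strains were above the WT (1.29, adjusted p = 0.01) and no difference of the cluster strains from the WT was called (-0.42, adjusted p = 0.47). Between the arms the log2 fold change was -1.74 ± 0.2 (adjusted p = 0.000433). CG10073 was called in 5 pairs too, with 15.6 to 75.1 CPM against 76.6 to 329 CPM (-2.06 ± 0.18, adjusted p = 7.28e-05). The gap between the arms was narrow, 75.1 CPM in the library labelled 95Ca replicate 2 against 76.6 CPM in 82Eb replicate 3. CG9259 had 106 to 152 CPM against 192 to 517 CPM (-1.22 ± 0.17, adjusted p = 0.00184) and was called against 21D alone. lncRNA:CR45138 (-2.42 ± 0.38), the odorant-binding protein gene Obp50d (-1.69 ± 0.27), the maltase gene Mal-B1 (-1.48 ± 0.31) and the UDP-glycosyltransferase gene Ugt302K1 (-1.17 ± 0.25) were lower at levels of at most 13.4 CPM. The calls of the last 2 were lost in 16 and 18 of 32 alternatives.

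Several of the 18 genes that the cluster strains agreed on were silent or raised in 1 dispersed strain only. CG3397 had 0.0532, 0.301 and 0 CPM in 82Eb, but 131, 82.5 and 137 CPM in 21D, 15.2 to 133 CPM in the cluster libraries and 80.8 to 96.3 CPM in the WT. CG32198 was at 0, 0.422 and 0 CPM in 82Eb and at 28 to 205 CPM in every other library. Acsx1L, an acyl-CoA synthetase gene, was at 0 in all 3 libraries of 82Eb and at 2.45 to 52.4 CPM in the other deletion strains. These genes separated 82Eb from everything else, the WT included. The photolyase gene phr, whose product repairs UV damage in DNA, did so for 21D, with 5.5, 1.99 and 5.27 CPM there and 15 to 34.7 CPM in every other library.

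The genes next to the deleted loci were examined in turn. Of the 9 genes tested within 50 kb of a 95C U1 gene, 0 were DEGs by edgeR or DESeq2, with 1 at an unadjusted p below 0.05 in edgeR. Their log2 fold changes ran from -0.39 (tbrd-1) to 0.45 (TfIIA-S). Of these genes 2, tbrd-1 and Pli, differed among the cluster strains (22.2%, against 10.9% of all genes). At 21D, 2 of 15 were DEGs (13.3%, against 0.879% of all genes), and at 82Eb 0 of 9 by either tool, with 0 at an unadjusted p below 0.05. One of the pair at 21D, scaRNA:MeU1:95C-A24 (2L:901976-902082, minus strand), is annotated as a small Cajal body RNA, a class that guides modification of spliceosomal RNAs, and lies 321 bp from the 21D gene on the same strand. It had 12.7, 25.4 and 12.8 CPM in 21D and at most 0.732 CPM in the other 15 libraries, the WT included. The cluster strains therefore all counted as lower (-3.27 ± 0.52, adjusted p = 0.00482), as did 82Eb. The other gene, lncRNA:CR45348 (2L:897453-898050), had 7.03, 12.5 and 6.32 CPM in 21D, at most 2.29 CPM in the WT, 82Eb, 95Ca and 95Cc, and at most 0.298 CPM in 95Cb. The protein kinase gene niki and the adjacent lncRNA:CR43166, 142 bp apart and 0.963 Mb from the 95C genes, were likewise highest in 21D. niki had 13, 10.4 and 13.8 CPM in 21D against 1.89 to 5.95 CPM in all other libraries.

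Over longer distances, the arm 3R that carries the cluster held 48 of the 114 DEGs. They were 1.51% of the 3184 genes tested on 3R, against 0.675% of the 9779 on the other chromosomes. Of these, 2L had 1.13% of 2387 genes and the X 0.196% of 2045. Within 1 Mb of the 95C genes 2 of 261 genes were DEGs (0.766%), from 1 to 5 Mb 22 of 847 (2.6%), and beyond 5 Mb 24 of 2076 (1.16%). Around 82Eb, on the same arm, 2 of 721 genes within 5 Mb were DEGs (0.277%), and around 21D, on 2L, 9 of 670 (1.34%). These shares are descriptions, since neighbouring genes are not independent.

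**Figure D3:**
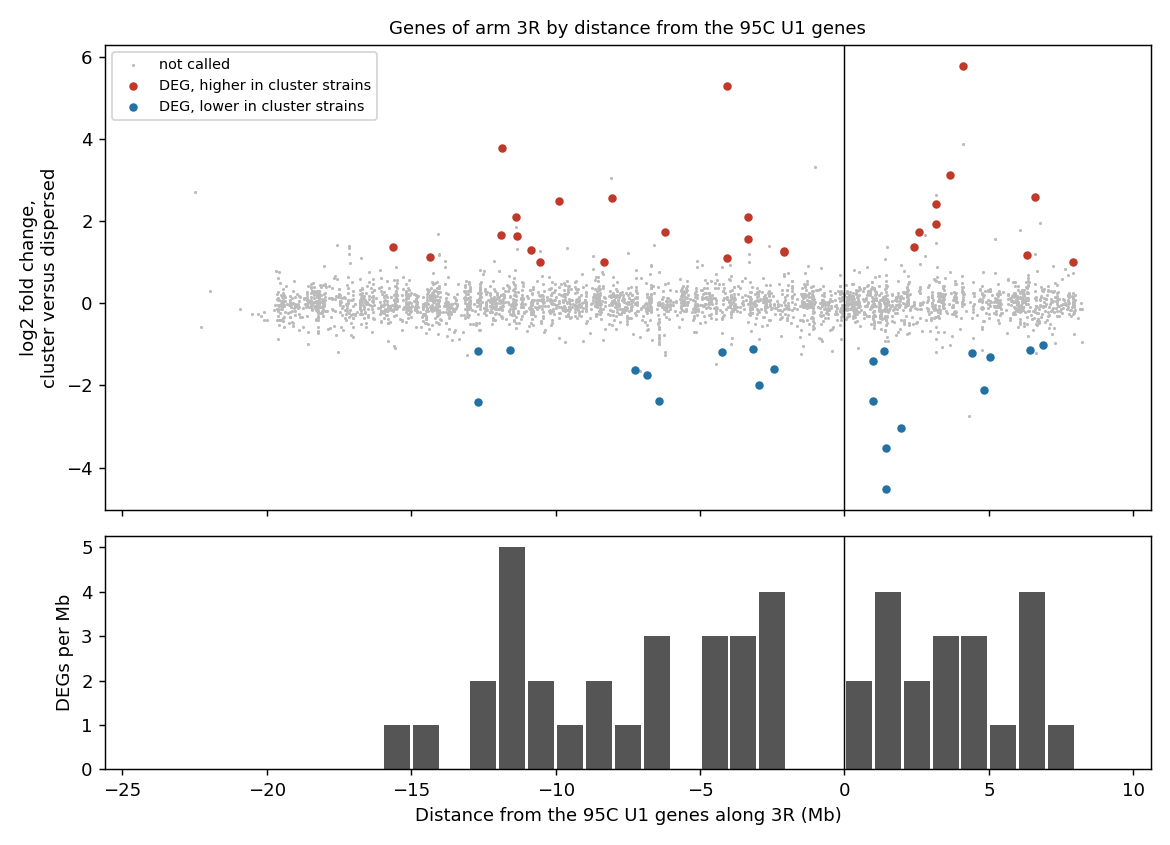
The upper panel shows the log2 fold change, cluster versus dispersed, of the 3184 genes tested on 3R against their distance from the 95C U1 genes in Mb, with 27 higher DEGs in red and 21 lower DEGs in blue. The bars below count the DEGs in each Mb, and 24 of the 48 lie within 5 Mb of the 95C genes.

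In 15 DEGs, 95Ca and 95Cb were called in the direction of the arms and 95Cc was not. Of these, 7 lay within 5 Mb of the 95C genes. Within that distance lay 24 of all 114 DEGs, 7 of the 43 called in 95Cc alone and 1108 of the 12963 genes tested. The smallest p among the 15 was that of CG11893 (3R:25289889-25291366), 1.43 Mb from the cluster. It had 0.494, 0.385 and 0.169 CPM in 95Ca and 0.637, 0.288 and 0.223 CPM in 95Cb. In 95Cc it had 16.6, 13.6 and 16.2 CPM, in 21D 22.4, 48.7 and 16.7 CPM, in 82Eb 29, 37.9 and 26.1 CPM, and in the WT 36.6, 64.9 and 35.4 CPM. The 95Cc libraries were thus far above the other cluster strains and below the dispersed ones, at the nearest 16.6 against 16.7 CPM. Mean levels were 15.5 CPM in 95Cc, 29.3 CPM in 21D and 31 CPM in 82Eb. Against the dispersed strains, 95Cc was not called (log2 fold change -1.01 ± 0.36, adjusted p = 0.0799). CG11893 had a log2 fold change of the arms of -4.53 ± 0.29 (adjusted p = 1.02e-05) and differed among the cluster strains (adjusted p = 8e-06). The pseudogene CR13656, 19.9 kb away, followed it in 95Ca and 95Cb, with 0 in all 95Ca libraries and at most 0.0479 CPM in 95Cb. In 95Cc, CR13656 had 3.69, 2.68 and 3.19 CPM, against 0.593 to 1.24 CPM in the dispersed libraries and 0.78 to 2.6 CPM in the WT. It was called higher in 95Cc than in the dispersed strains (log2 fold change 1.73 ± 0.3), opposite to its call between the arms. CG31380, 1.93 Mb from the cluster, had at most 0.527 CPM in 95Ca and 95Cb and 1.46 CPM or more in all other libraries.

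The pseudogene CR31054, 4.1 Mb from the cluster, went the other way. It had 1.17, 1.15 and 1.35 CPM in 95Ca and 2.09, 2.01 and 1.41 CPM in 95Cb, while the WT, 21D and 82Eb had 0 counts and 95Cc at most 0.0651 CPM. With 3 counts taken as the limit for the 6 dispersed libraries together, it was at least 36.8-fold higher over the cluster libraries. RYa-R, the receptor of the RYamide neuropeptides, had 1.61 to 3.94 CPM in 95Ca and 95Cb and 0.181 to 0.662 CPM in the other deletion strains. The lipase family gene CG6271 also had 2.96 to 8.47 CPM in 95Ca and 95Cb and at most 1.84 CPM in the other deletion strains, all far below the WT (107 to 167 CPM). CG6271 lies inside RYa-R on the opposite strand, and with no strand setting given their reads may be shared, although RYa-R had at most 0.633 CPM in the WT, where CG6271 was highest. NijB, a ninjurin cell surface protein gene on 3L, had at most 0.149 CPM in 95Ca and 95Cb, 2.73 to 3.02 CPM in 95Cc, and split the dispersed strains too (at most 0.464 CPM in 21D, 4.68 to 8.56 CPM in 82Eb).

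**Figure D4:**
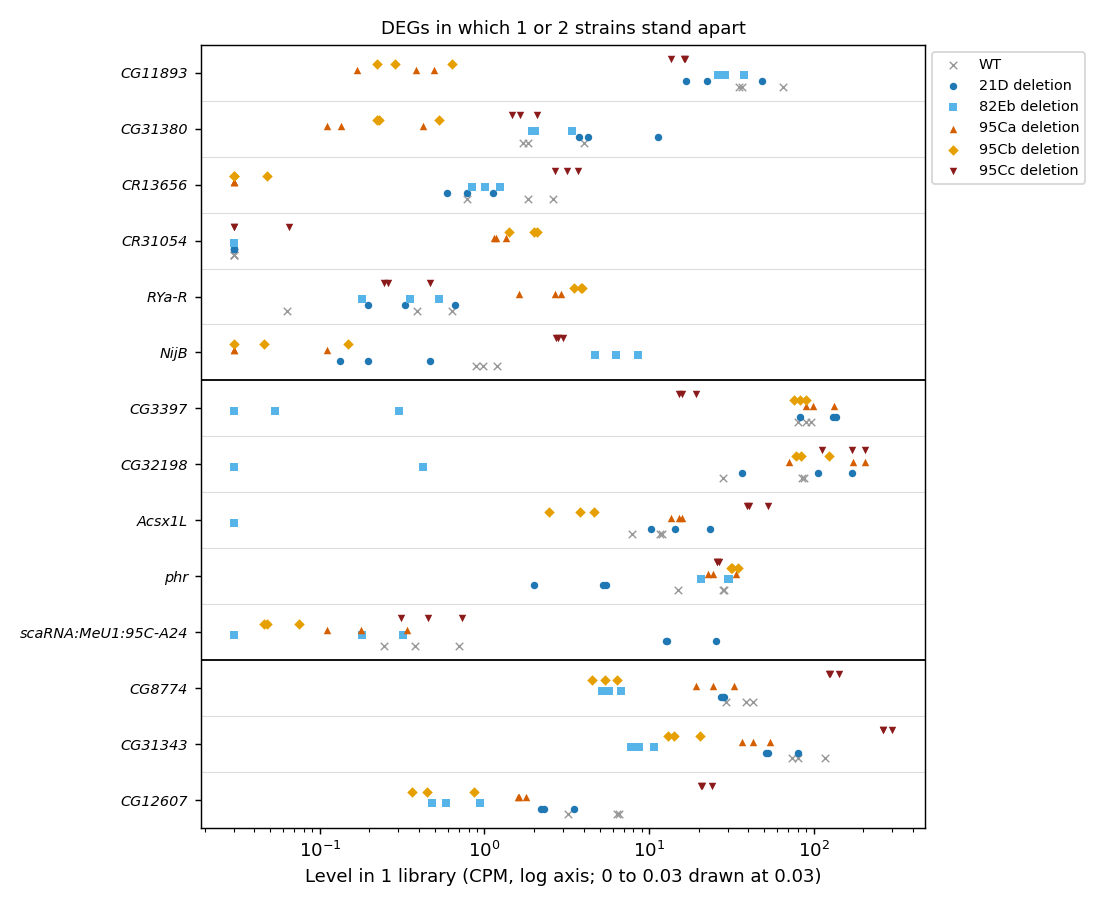
Each point is the level in 1 library in CPM on a log axis, for 14 DEGs in 3 blocks. In the upper block 95Ca and 95Cb lie together and apart from 95Cc (CG11893 at most 0.637 CPM against 13.6 to 16.6 CPM), in the middle block a single dispersed strain stands apart (CG3397 at most 0.301 CPM in 82Eb), and in the lower block 95Cc lies above all other strains (CG8774 at 124 to 142 CPM).

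The opposite split, 95Cc alone in the direction of the arms, held the most DEGs, 43, of which 32 were higher. CG8774 had 142, 125 and 124 CPM in 95Cc, 24.5, 32.7 and 19.3 CPM in 95Ca, 6.37, 4.51 and 5.36 CPM in 95Cb, 28.7, 28.2 and 27.3 CPM in 21D, and 5.21, 6.75 and 5.73 CPM in 82Eb. 95Ca was thus near 21D and 95Cb near 82Eb, and only 95Cc stood above the WT (29.4 to 42.8 CPM). Against the mean of the dispersed strains, 95Cb was called lower (log2 fold change -1.26 ± 0.19), opposite to the call of CG8774 between the arms. In CG31343 and CG12607, 95Cc was likewise the highest strain, with 263 to 300 CPM and 20.6 to 24.2 CPM in 95Cc. The difference among the cluster strains spanned 4.56, 4.09 and 5.24 on the log2 scale in CG8774, CG31343 and CG12607. Of the 79 cuticle protein genes tested, 36 differed among the cluster strains (45.6%, against 10.9% of all genes) and 2 were DEGs between the arms (2.53%, against 0.879%). Cpr47Eg was one of these, at 27.1 to 29.4 CPM in 95Cc and 0.121 to 5.53 CPM in the other deletion libraries, and its sign reversed without 95Cc. Cpr65Av, the other, was lower mainly in 95Cb. The call of Ugt49B2, a UDP-glycosyltransferase gene that was lower, came from 95Cb and 95Cc (0.137 to 0.586 CPM), while 95Ca (1.12 to 1.98 CPM) lay within the dispersed range (0.767 to 2.05 CPM).

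Other DEGs paired the strains in other ways. Adh, the alcohol dehydrogenase of the fly, was called in 95Ca and 95Cc and not in 95Cb. It had 1.88, 1.04 and 1.44 CPM in 95Ca, 3.74, 2.26 and 3.71 CPM in 95Cc, 0.288 to 0.818 CPM in 95Cb and 0.0662 to 0.543 CPM in the dispersed libraries (2.66 ± 0.4). Adh counts were low, 277 over the cluster libraries and 26 over the dispersed libraries. As the handling of shared reads is not given, they may not reflect the full level of the gene. The strain pattern of Adh was shared by lncRNA:CR45284, at 0.935 to 3.22 CPM in 95Ca and 95Cc and at most 0.362 CPM in 95Cb and the dispersed strains. The scavenger receptor gene ninaD, whose product takes up carotenoids, was called lower in 95Ca and 95Cb, but 82Eb (3.14 to 3.56 CPM) was at their level (1.94 to 4.01 CPM) and 21D was higher (17.9 to 37.5 CPM). Nepl17, a neprilysin-like peptidase gene, had 1.12 to 5.99 CPM in 95Ca and 95Cb and 11.5 to 23.8 CPM in every other library, 95Cc included. The vitamin transporter gene Smvt had 79.2, 71.5 and 66.7 CPM in 95Cc and at most 19.2 CPM in every other library. TrpA1, a cation channel of heat and irritant sensing (1.25 ± 0.27), and ppk13, a sodium channel of the pickpocket family (1.09 ± 0.24), were both called higher in 95Cc alone. Neither was called against 82Eb in any cluster strain. In 82Eb, ppk13 had 3.56, 9.29 and 5.13 CPM, beside 3.35 to 8.23 CPM in the cluster libraries. Each of the 2 calls was kept in 15 of 31 alternatives. Ir56b and Gr59e were likewise called in 95Cc alone, but lower.

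Lists tied to U1 function are short, and at the share of 0.879% over all genes a count of 0 in them says little. By edgeR, 0 of 9 genes for U1 snRNP and Sm proteins and 0 of 7 other spliceosomal snRNA genes were called, with 0 at an unadjusted p below 0.05 and 0 by DESeq2, and with median log2 fold changes of 0.17 and -0.01. The list of 118 snoRNA and scaRNA genes had 1, the gene beside 21D. Lists of salivary glue genes, ecdysone response regulators and muscle structure genes had 0 DEGs by edgeR and by DESeq2 as well, each with 5 genes at an unadjusted p below 0.05. Among the cluster strains, 6 of 11, 8 of 14 and 9 of 25 of their members differed (54.5%, 57.1% and 36%, against 10.9% of all genes). Of 7 Eig71E late genes tested, 0 were DEGs by edgeR and 1 by DESeq2, and 6 differed among the cluster strains (85.7%).

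Of the marker lists for other cell types, 0 of 11 hemocyte, 0 of 10 neuron, 0 of 10 imaginal disc, 0 of 7 Malpighian tubule and 0 of 12 testis genes were DEGs by either tool, with 1, 0, 0, 3 and 1 at an unadjusted p below 0.05 in edgeR, where 1352 of all 12963 genes were. Lists of this size would hold few DEGs at the share of 0.879%. The hemocyte markers summed to 1270 to 1740 CPM in the cluster libraries, 1560 to 1780 CPM in the dispersed libraries and 2310 to 2530 CPM in the WT. Their part in the differences of immune genes was not tested.

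Set against the WT, the cluster strains had 498 DEGs (3.8% of 13096 genes, 451 lower) and the dispersed strains 581 (4.44%, 496 lower), both in 1 fit that shares the WT libraries. The 66 genes higher in the cluster strains were mostly genes below the WT in the dispersed strains. Of these, 28 were called lower than the WT in the dispersed strains and not called in the cluster strains, 17 were lower in both, 7 were higher in the cluster strains alone, and 14 were called in neither. Of the 48 genes lower in the cluster strains, 21 were lower than the WT in the cluster strains alone, 8 were higher in the dispersed strains alone, 5 were lower in both and 14 were called in neither.

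**Figure D5:**
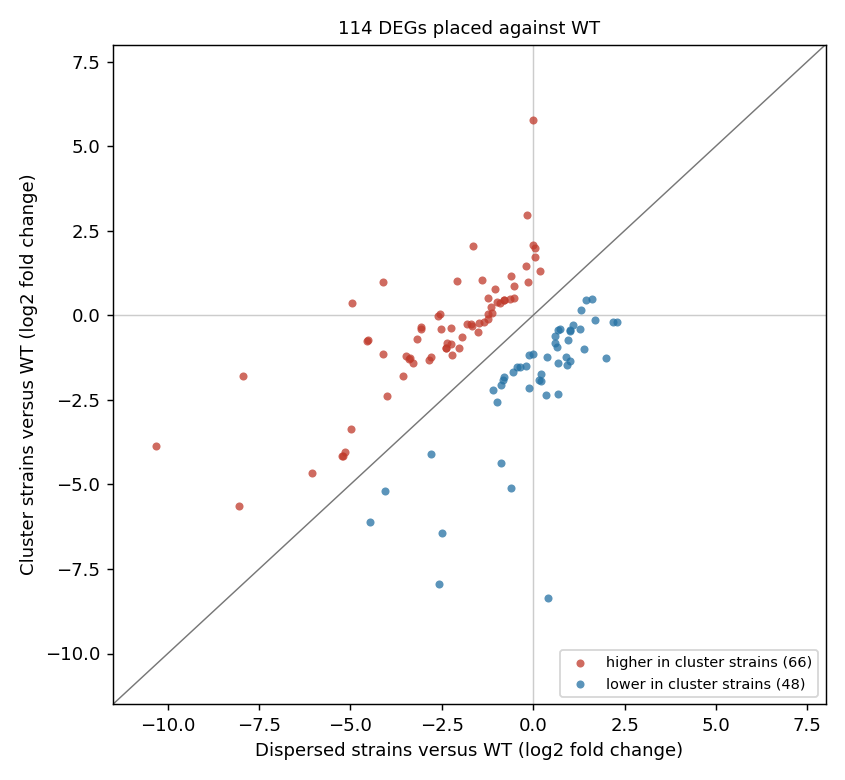
Each of the 114 DEGs is placed by its log2 fold change against the WT in the dispersed strains (horizontal axis) and in the cluster strains (vertical axis), both from the fit of 18 libraries. Points above the diagonal are the 66 genes higher in the cluster strains, most of them left of 0 on the horizontal axis, and sordd2 lies farthest left at -10.33.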

How the data were processed

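The deposited values are raw read counts of 17562 genes in 18 libraries, 3 for each of 6 groups. The authors trimmed reads (Trimmomatic 0.39 and cutadapt 1.15 are named in the submitters' processing notes), aligned them with HISAT2 (dm6) and ran featureCounts. The handling of strand and of multi-mapping reads is not given in the sources used here, so genes that overlap another on either strand (such as CG31517, Ttc26, LysB, Mal-B1, NijB and CR31054) are uncertain. Symbols and positions were taken from Ensembl's BDGP6.54 annotation (17421 genes at the same position). With edgeR 4.0.16 (R 4.3.3), genes were kept by filterByExpr by strain (minimum count 10, minimum total 15), scaled by TMM and tested with glmQLFit and glmQLFTest over the 15 deletion libraries, without WT libraries and without a block. A standard error is the log2 fold change divided by the square root of F. CPM were computed from the deposited counts over the TMM-scaled library size. Comparisons with the WT used 18 libraries. The authors tested with DESeq2, and DESeq2 1.42.0 was an alternative here, with unchanged thresholds. All columns of counts were used. Nothing says whether replicates came from separate cultures, so p-values measure the spread between these samples only. No library pair was taken for a duplicate. Replicate numbers did not pair samples across the arms (no strain pair had all 3 correlations of deviations above 0.1). Within the arms they did for 21D with 82Eb (0.57 to 0.8) and for 95Cc with 95Ca and 95Cb (0.25 to 0.65), but not for 95Ca with 95Cb (-0.12 for replicate 2), so a block within each arm was added. The fits were tested on simulated data.

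The comparison, the gene lists and the rule for named genes were chosen with earlier results of these data known. Named genes were the U1 genes, up to 10 non-overlapping DEGs from either end of the log2 fold changes, the 4 most abundant of them in each direction, the 3 DEGs with the smallest p among the cluster strains, DEGs within 50 kb of a deleted gene and up to 3 DEGs of each list. Other genes named, such as CG3397, Alp7, the LMan genes, CR13656 and RYa-R, were picked after their values were seen.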

Additional observations from a re-analysis of the deposited data

Results flagged for a closer look

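The effect of a deletion in the 95C cluster, measured against the same dispersed strains, differed between cluster strains for 1409 of 12963 genes by edgeR's quasi-likelihood test among the 3 strains. These included 66 of the 114 DEGs of the comparison between the arms. The 3 DEGs with the smallest p in that test were CG8774, with a span of 4.56 on the log2 scale between the highest and lowest cluster strain, CG12607 with 5.24 and CG31343 with 4.09. In each of them 95Cc was the highest and 95Cb the lowest strain, and 95Cb lay below the mean of the dispersed strains. Groups of 3 libraries were too small for a test of single outlying libraries.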

How the results depend on the processing

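Of the 40 named genes that could be tested, 14 kept their call in all alternatives that took libraries as replicates, and none kept it with strains as replicates, where the 114 DEGs between the arms became 0. The other counts of these DEGs were 207 by the adjusted p alone, 212 without 95Cb, 223 without 21D and 177 without 82Eb, and 171 by DESeq2. The 18 genes on which the cluster strains agreed became 30 by DESeq2 (all 18 among them), 39 without 95Ca, 31 without 95Cc and 36 without 82Eb, where fewer strains had to agree or a single dispersed strain was left. The 1409 genes among the cluster strains became 2191 without the deletion libraries on the positive side of the first component. They became 1681 without 95Ca, 589 without 95Cb and 78 without 95Cc. DESeq2 gave 403 genes between 82Eb and 21D. By the adjusted p alone, 788 genes differed between the cluster strains and the WT, and 951 between the dispersed strains and the WT. Leaving out single libraries gave 83 to 125 DEGs between the arms, 11 to 22 agreeing, 858 to 1952 among the cluster strains, 163 to 299 between 82Eb and 21D, 392 to 558 for cluster against WT and 492 to 691 for dispersed against WT. Signs reversed without 95Cc for CG8774 (-0.13), CG12607 (-0.46) and Cpr47Eg (-0.22), and without 82Eb for CG8774 (-0.12), CG31343 (-0.11) and Cpr47Eg (-0.59). The cause was not tested. A fit with a block for the replicate number gave 96 DEGs between the arms (95 shared with the fit without it), 16 agreed, 1318 differed among the cluster strains, 229 differed between 82Eb and 21D, and 488 and 587 differed from the WT in the cluster and dispersed strains. Correlations of same-numbered samples ran from -0.68 to 0.61, across the arms, so that 1 block for both arms could not hold the opposite patterns. With a replicate block within each arm, added after seeing the data, 184 DEGs were called between the arms, 26 agreed, 2122 genes differed among the cluster strains and 395 between 82Eb and 21D. Low counts limit the U1 genes and DEGs below 1 CPM most, and with a filter of 50 counts in 3 libraries 83 DEGs were left.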
